A study of Mus musculus with 70 samples.

Results

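RiboTag pulldowns of mouse forebrain microglia were compared between mice given lipopolysaccharide (LPS), the endotoxin of Gram-negative bacteria, and mice given saline. The comparison held 7 of the 70 libraries of the series, which were 3 LPS libraries, replicates 1, 3 and 4, and 4 saline libraries, replicates 1 to 4, all chosen by their labels. All 7 came from Cx3cr1CreERT2-IRES-eYFP/+; Rpl22HA/+ mice, in which tamoxifen switches on a hemagglutinin-tagged ribosomal protein, RPL22, in cells with Cx3cr1 promoter activity. Both groups had tamoxifen and then a week of rest. LPS was injected into the peritoneum and tissue was taken 24 h later, whereas the labels give the saline animals as controls of the LPS study with no time. Forebrains were perfused with PBS and homogenised directly by sonication, and tagged ribosomes with their RNA were pulled down with an anti-HA antibody. The Cx3cr1 promoter also drives Cre in other Cx3cr1-positive macrophages, and all animals carried 1 modified copy of Cx3cr1. Sex and age are not given for this experiment, and each library was taken as 1 animal. A second experiment of the same design, with the viral RNA mimic Poly(I:C) given 24 h before harvest (3 libraries) and its own saline controls (3 libraries), served for comparison, and 4 bulk forebrain input libraries served as a check of the pulldown.

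LPS is bound by CD14 and sensed by the receptor TLR4 with its partner MD-2, which signals through the adaptors MyD88 and TRIF. The MyD88 branch activates NF-kB and with it genes of cytokines, chemokines and acute-phase proteins, while the TRIF branch leads to type I interferon and with it to interferon-stimulated genes. Poly(I:C) is sensed by TLR3 and by cytosolic RNA receptors, which also lead to interferon. Microglia, the resident macrophages of the brain, are known to lose part of their homeostatic expression during such a response.

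Values are RPKM, reads per kilobase of a gene and per 1e6 reads. The recovered reads in genes numbered 36.8 to 46.1 in LPS libraries and 31.5 to 47.2 in saline libraries, in units of 1e6. RPKM was not per reads in genes. Its recovered denominators were 88.2 to 100 in LPS libraries and 76.2 to 120 in saline libraries, in the same units. The label of the tissue held against its markers. In the input libraries, the microglial receptor genes P2ry12, Tmem119 and Cx3cr1 averaged 4.12, 1.16 and 0.846 RPKM, while the lowest of the 7 pulldowns had 66.9 RPKM for P2ry12, 41.4 RPKM for Tmem119 and 22.0 RPKM for Cx3cr1. The neuronal gene Snap25 had 64.1 to 107 RPKM in the pulldowns and averaged 294 RPKM in input, so RNA of untagged cells was still present. The 4 saline libraries fell into pairs. The mean log2(RPKM + 1) of 22 homeostatic microglial genes was 5.75, 6.17 and 5.89 in LPS replicates 1, 3 and 4, and 6.25 and 6.48 in saline replicates 1 and 2 but 5.05 and 5.13 in saline replicates 3 and 4. Over 15 neuronal genes the same mean was 3.61 to 3.97 in LPS libraries and 3.60 to 3.87 in saline libraries. Counts and medians of the gene lists are therefore also given without saline replicates 3 and 4. In pulldowns, fewer tagged cells and less RNA per cell cannot be told apart.

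The upstream sequences of 4 genes that were higher after LPS are shown here because 2 of them, Saa3 and Cxcl10, were among the most changed genes and the other 2, Isg15 and Ifit1, are textbook interferon targets, the last 2 picked after their values were seen. Each is a stretch of 120 bases upstream of the RefSeq transcript start on GRCm38.p6, written 5′ to 3′ on the gene's strand, and capitals mark the motifs found in it. Saa3 lies at chr7:46715707-46715826 (minus strand), Cxcl10 at chr5:92349010-92349129 (minus strand), Isg15 at chr4:156200829-156200948 (minus strand) and Ifit1 at chr19:34640739-34640858 (plus strand).
Saa3: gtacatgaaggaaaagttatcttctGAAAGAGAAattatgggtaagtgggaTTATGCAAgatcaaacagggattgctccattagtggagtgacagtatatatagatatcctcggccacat
Cxcl10: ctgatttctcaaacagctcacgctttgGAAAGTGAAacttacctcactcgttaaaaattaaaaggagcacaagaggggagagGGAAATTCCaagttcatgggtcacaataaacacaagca
Isg15: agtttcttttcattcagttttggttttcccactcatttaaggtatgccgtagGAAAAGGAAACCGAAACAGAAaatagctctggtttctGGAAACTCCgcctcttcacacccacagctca
Ifit1: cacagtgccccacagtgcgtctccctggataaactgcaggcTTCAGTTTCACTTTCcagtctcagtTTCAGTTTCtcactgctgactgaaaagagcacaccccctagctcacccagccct

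The motifs were searched on both strands of the 300 bases around each start, from 250 before it to 50 after it, in 27025 genes. They were GAAANNGAA, the core of the interferon-stimulated response element (ISRE) bound by IRF factors, GGANTTTCC, an NF-kB site, and TTGCNNAA, a C/EBP site. Saa3 held an ISRE core at -125 and a C/EBP match at -99, counted from the start, and Cxcl10 an ISRE core at -213 and an NF-kB match at -158. Isg15 held ISRE cores at -78, -72 and -66, which overlap, and an NF-kB match at -41. In Ifit1 the ISRE cores stood at -109, -103 and -84, and those at -109 and -103 overlap. Of all 27025 genes, 9.76% held an ISRE core, 1.45% the NF-kB letters and 12.2% the C/EBP letters. Among the interferon response genes that were higher after LPS, 14 of the 22 with a window held an ISRE core (63.6%), among the chemokine genes that were higher 3 of 6, among the ribosomal protein genes that were higher 11 of 42 (26.2%) and among the endoplasmic reticulum genes that were higher 0 of 14. Among tested genes with a window, called or not, an ISRE core stood in 15 of 26 interferon genes (57.7%) and 3 of 11 chemokine genes. The same count was 12 of 44 for ribosomal protein genes (27.3%) and 0 of 19 for endoplasmic reticulum genes. A C/EBP match stood in 3 of the 4 acute-phase genes that were higher and had a window, and in 5 of the 10 tested with a window. A match of letters is a description and not a site of binding.

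LPS was followed by a response that ran almost wholly upward. Of 13989 genes tested, 1675 rose (12.0%) and 45 fell (0.322%) at an adjusted p under 0.05 in limma, and 750 of those that rose and 3 of those that fell had at least a 2-fold change. The median log2 fold change of all genes was 0.11. Scaling by the median of ratios moved it to -0.01 and gave 1432 higher and 110 lower, so the direction of changes near 0.1 depends on the scaling. Values of the LPS and saline libraries did not overlap in 3707 of all 13989 genes (26.5%), 1714 of the 1720 called genes among them. The filter, which kept genes averaging 1 RPKM or more in the 7 libraries, bears on every list count below. It let in 532 genes with a saline mean under 1 RPKM, which could pass only through their LPS values, so that list counts and medians over tested members describe those that passed and not all members. Of the 13457 genes with a saline mean of at least 1 RPKM, 1424 rose and 45 fell, with a median of 0.09, and the same count is given for lists where it differs much. Leaving out 1 library gave between 397 calls (without LPS replicate 4) and 2347 (without saline replicate 2), with 457 without LPS replicate 3 and 928 without saline replicate 3, and 955 were called without saline replicates 3 and 4 together. In all, 373 genes were called higher in the fit of 7 libraries and again without each library in turn (2.67% of those tested), and 2 were called lower. A fit that shared its spread with the sorted cell libraries called 189. In that fit, 9 of the chemokine list described below were called, 25 of the ribosomal protein list, 6 of the endoplasmic reticulum list, 5 of the interferon list and 3 of the cell cycle list, with at most 5 in each other list.

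**Figure D1:**
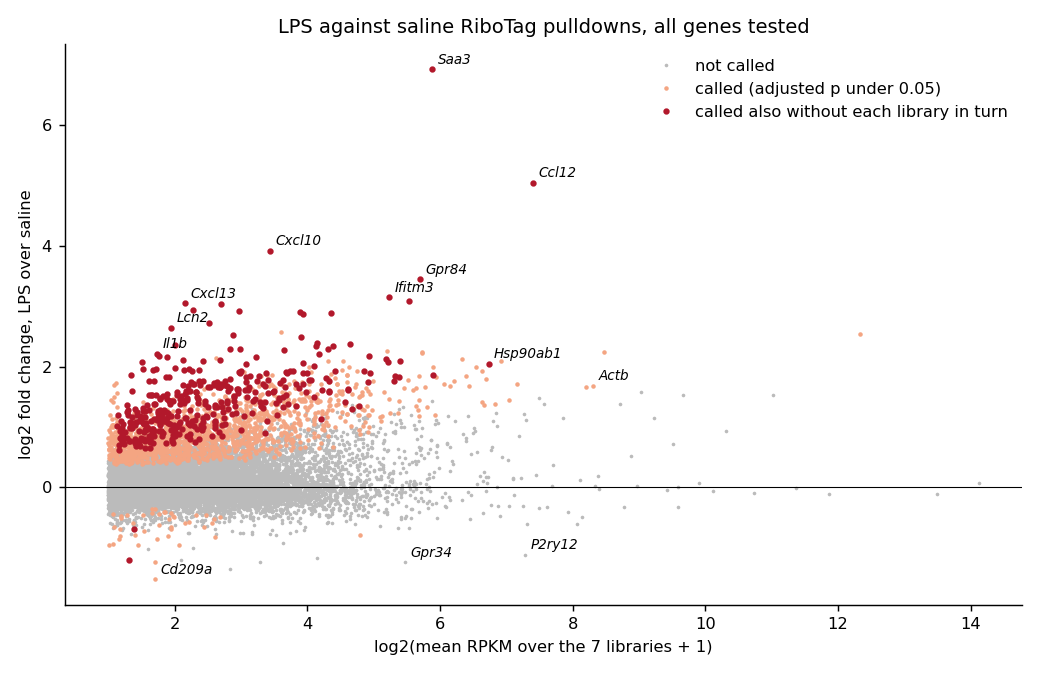
Each point is 1 of 13989 genes, with the mean level over the 7 libraries across (log2 of RPKM plus 1) and the log2 fold change of LPS over saline up. Called genes are orange, and genes called again without each library in turn are red. Saa3, Ccl12 and Cxcl10 stand highest, and nearly all called points lie above 0.

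Short genes were called more often than long ones. Over the 11144 protein-coding genes tested, divided by length into 5 classes of like size, 30.1% rose in the shortest class (36 to 2185 bases), with a median of 0.42. In the following classes 16.6%, 10.8%, 5.62% and 2.47% rose, down to a median of -0.01 in the longest (6874 to 38847 bases). The gradient was also present without saline replicates 3 and 4, with medians of 0.26 in the shortest and -0.02 in the longest class. It stands beside the counts for ribosomal, proteasome and respiratory chain genes given below, and its part in them was not tested.

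The acute-phase gene Saa3 (ENSMUSG00000040026, chromosome 7, 46711998 to 46715676), a serum amyloid A made outside the liver, changed most. It had 108, 106 and 194 RPKM in LPS libraries, against 0.148, 0, 0.172 and 0 RPKM in saline libraries, or 5057, 5639 and 9087 recovered reads against 6, 0, 11 and 0. The gene was thus all but absent from saline pulldowns, and the log2 fold change of log2(RPKM + 1), the scale of all fold changes here, was 6.93 ± 0.22 (SE, adjusted p = 4.01e-06). Lcn2 (ENSMUSG00000026822, chromosome 2, 32384633 to 32388252), which withholds iron from bacteria by binding siderophores, had 6.42, 5.11 and 7.68 RPKM after LPS and 0.1, 0.225, 0.143 and 0.220 RPKM after saline, a change of 2.65 ± 0.13 (adjusted p = 6.43e-05). Neither gene's groups came near each other. Of 12 acute-phase and metal-sequestration genes tested, 5 rose and 0 fell, with a median of 0.60, and 3 of the 5 kept their call without each library. These were Saa3, Lcn2 and the zinc transporter gene Slc39a14 at 0.83 ± 0.13 (adjusted p = 0.00684). Without LPS replicate 3 the count was 3, and without saline replicates 3 and 4 it was 4 higher and 1 lower (median 0.45). A further 9 of the 21 entries were not tested, 3 of the 12 tested had a saline mean under 1 RPKM, and 2 of the other 9 rose.

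**Figure D2:**
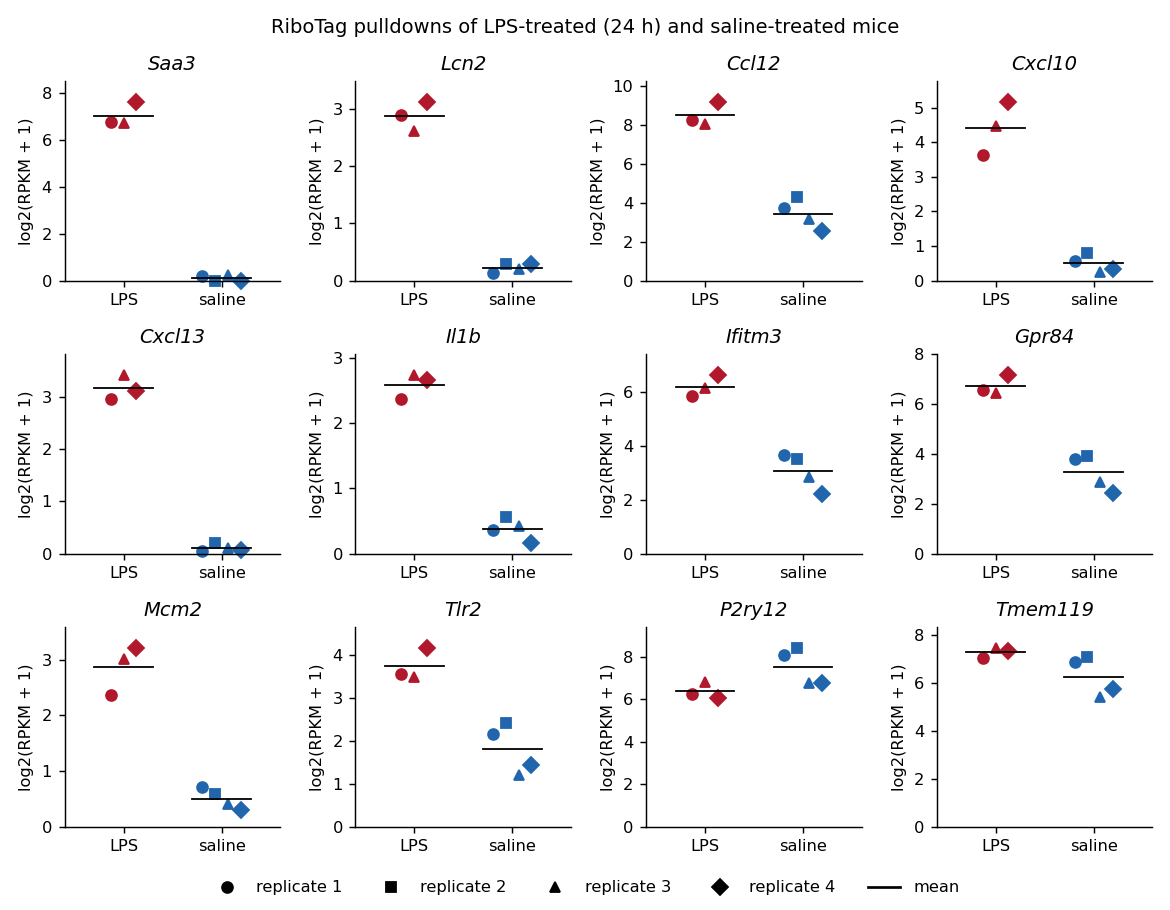
Each panel is 1 gene, with LPS libraries in red on the left, saline libraries in blue on the right, 1 marker shape per replicate number, the mean as a line and log2(RPKM + 1) up. The groups do not overlap for the first 10 genes, whereas saline replicates 1 and 2 stand apart from 3 and 4 for P2ry12 and Tmem119.

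Several chemokine genes rose from low saline levels. Of 17 chemokine and chemoattractant receptor genes tested, 11 rose (64.7%, beside 12.0% of all genes) and 0 fell, with a median of 2.11 beside 0.11 for all genes, and 9 of the 11 were called without each library in turn. These shares are raised by the filter, since 11 of the 28 entries were not tested and 7 of the 17 tested had a saline mean under 1 RPKM. Of the other 10, 4 rose, with a median of 0.53. With no filter 12 of the 28 were called higher, and without saline replicates 3 and 4 the tested members gave 9 higher and 1 lower (median 1.70). Ccl12 (ENSMUSG00000035352, chromosome 11, 82101845 to 82103400), which attracts monocytes through CCR2, had 306, 261 and 564 RPKM in LPS libraries and 12.1, 18.6, 8.08 and 4.72 RPKM in saline libraries. At 5.05 ± 0.44 (adjusted p = 0.00103) it was also among the most abundant called genes. Its neighbour Ccl2, the main CCR2 ligand, had 7.71, 11.8 and 17.1 RPKM after LPS and 0.703, 0.530, 0.542 and 0.355 RPKM after saline (3.05 ± 0.22, adjusted p = 0.000600). Cxcl10, an interferon-induced ligand of CXCR3 on T cells, had 11.3, 21.3 and 34.6 RPKM after LPS and 0.492, 0.745, 0.197 and 0.272 RPKM after saline (3.92 ± 0.32, adjusted p = 0.000733). All 3 were separated by group without overlap, as were 1714 of the 1720 called genes and 26.5% of all genes tested. The separation therefore adds nothing to their calls. The B cell attractant Cxcl13 had 6.76, 9.60 and 7.62 RPKM after LPS and at most 0.150 RPKM after saline (3.05 ± 0.13, adjusted p = 1.81e-05). The T cell attractant Ccl5 had 5.74, 10.2 and 10.1 RPKM after LPS and at most 0.369 RPKM after saline (2.94 ± 0.19, adjusted p = 0.000392). The 6 genes not called included the fractalkine receptor gene Cx3cr1, at 54.3, 66.9 and 57.5 RPKM after LPS and 56.1, 75.7, 23.1 and 22.0 RPKM after saline (0.61 ± 0.43, adjusted p = 0.422).

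Among the genes that sense LPS, receptors and adaptors rose while TLR4 itself did not pass the test. Of 19 tested, 6 rose (31.6%) and 0 fell, with a median of 0.67. Tlr2, which recognises bacterial lipoproteins, had 10.9, 10.3 and 16.9 RPKM after LPS and 3.51, 4.33, 1.31 and 1.71 RPKM after saline (1.93 ± 0.31, adjusted p = 0.00731), and its partner Tlr1 changed by 1.6 ± 0.25 (adjusted p = 0.00697). Both kept their call without each library. Cd14, the co-receptor that hands LPS on, had 13.2, 22.1 and 22.3 RPKM after LPS and 8.86, 10.1, 3.26 and 4.85 RPKM after saline (1.45 ± 0.35, adjusted p = 0.0295), but its adjusted p was 0.0591 without saline replicate 3, 0.0680 without saline replicate 4, 0.129 without LPS replicate 3 and 0.131 without LPS replicate 4. The adaptor genes Myd88 at 1.26 ± 0.25 (adjusted p = 0.0140) and Ticam2 at 0.95 ± 0.20 (adjusted p = 0.0181) were called in the full fit but not without LPS replicate 3 or 4. Tlr4 had 4.50, 4.65 and 4.24 RPKM after LPS and 3.84, 4.39, 1.37 and 1.61 RPKM after saline (0.62 ± 0.29, adjusted p = 0.215). The list count fell to 2 without LPS replicate 3 or 4, was 4 without saline replicate 3 or 4, and was 4 without both of these together, where the median was 0.15.

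Among cytokine and cytokine receptor genes, 6 of 18 tested rose (33.3%), 0 fell, and the median was 0.70. Il1b, the inflammasome-processed pyrogen, had 4.19, 5.65 and 5.36 RPKM after LPS and 0.282, 0.468, 0.345 and 0.116 RPKM after saline (2.22 ± 0.13, adjusted p = 0.000252), and together with the interleukin-4 receptor gene Il4ra (1.58 ± 0.21, adjusted p = 0.00470) it kept its call without each library. Il1b had a saline mean under 1 RPKM and passed the filter only through its LPS values. Of the other 17 genes tested, 5 rose (median 0.70). The receptor genes Csf2rb at 1.45 ± 0.26 and Csf2ra at 0.80 ± 0.16 were called in the full fit (adjusted p = 0.0108 and 0.0140) and lost the call without LPS replicate 3 or 4, where the list count was 2. It was 4 without saline replicate 3 or 4, and 5 without both (median 0.29). Tnf fell under the filter of a mean of 1 RPKM and has no test. It had 0.581, 1.28 and 1.00 RPKM after LPS and 0.144, 0.192, 0.0508 and 0.0235 RPKM after saline, from 84, 211 and 145 reads against 18, 25, 10 and 4. Of 14 NF-kB subunit and feedback genes 5 rose and 0 fell (median 0.60), or 8 without saline replicate 2 and 2 and 1 without LPS replicate 3 and 4. Without saline replicates 3 and 4 it was 3 (median 0.37), and 4 of the 14 tested had a saline mean under 1 RPKM. The cytokine signalling inhibitor gene Socs3 had 2.40, 2.13 and 2.56 RPKM after LPS and 0.390, 0.396, 0.355 and 0.183 RPKM after saline (1.34 ± 0.11, adjusted p = 0.000733), although it fell under the filter without LPS replicate 4. Nfkbia, the inhibitor that NF-kB itself induces, had 3.69, 3.48 and 5.54 RPKM after LPS and 1.55, 1.80, 1.29 and 1.04 RPKM after saline (1.10 ± 0.17, adjusted p = 0.00671).

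Interferon response genes rose together. Of 31 tested, 27 rose (87.1%), 0 fell, and the median was 1.11, while 12 further genes of the list lay under the filter. A saline mean under 1 RPKM was found for 11 of the 31, and 16 of the other 20 rose, with a median of 1.07. With no filter 28 of the 43 were called higher. Ifitm3, a membrane protein that blocks virus entry, had 56.2, 70.5 and 97.2 RPKM after LPS and 11.6, 10.4, 6.20 and 3.63 RPKM after saline (3.15 ± 0.36, adjusted p = 0.00302). Its relative Ifitm2 changed by 2.91 ± 0.35 (adjusted p = 0.00367), and since the 2 genes are alike in sequence some reads may be split between them. Ifi30, a lysosomal thiol reductase used in antigen processing, had 77.4, 92.9 and 106 RPKM after LPS and 13.6, 15, 6.92 and 6.69 RPKM after saline (3.08 ± 0.31, adjusted p = 0.00167). Low but cleanly separated genes included the RNase L activator gene Oas1a, at 2.39, 2.86 and 3.04 RPKM after LPS and at most 0.592 RPKM after saline (1.37 ± 0.11, adjusted p = 0.000733), and the growth regulator Slfn2, at 5.16, 6.13 and 6.57 RPKM after LPS and at most 1.27 RPKM after saline (1.99 ± 0.18, adjusted p = 0.00119). The nucleic acid sensor gene Zbp1 had 1.75, 2.18 and 2.74 RPKM after LPS and at most 0.279 RPKM after saline (1.44 ± 0.13, adjusted p = 0.00116), but lay under the filter when any 1 LPS library was left out. Isg15, a ubiquitin-like modifier, and Ifit1, which binds viral RNA, whose upstream sequences hold several ISRE cores, changed by 1.53 ± 0.19 and 1.52 ± 0.17 (adjusted p = 0.00403 and 0.00302). Across the list, 16 genes kept their call without each library, and 24 were called without saline replicates 3 and 4 (median 0.86). The count was 16 without LPS replicate 4 and 5 in the fit shared with sorted cells.

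Antigen presentation by class I moved with the interferon genes in part. Of 13 class I and immunoproteasome genes tested, 7 rose and 0 fell, with a median of 0.94, and the proteasome activator gene Psme2 (14.6, 17.0 and 20.0 RPKM after LPS, 6.30, 7.29, 3.74 and 3.40 RPKM after saline, 1.6 ± 0.25, adjusted p = 0.00681) was the one that kept its call without each library. Its partner Psme1 and the class I heavy chain gene H2-K1, which is near-identical to other class I genes, had 1.93 ± 0.36 and 1.57 ± 0.34 (adjusted p = 0.0112 and 0.0193), and neither was called without LPS replicate 3 or 4. The list count was 1 without either of these 2 libraries and 4 without saline replicate 3, and without saline replicates 3 and 4 it was 5 (median 0.44). Class II behaved otherwise. Of 9 tested, the peptide-loading genes H2-DMa and H2-DMb1 rose in the full fit (1.16 ± 0.31 and 0.89 ± 0.24, adjusted p = 0.0419 and 0.0430), but neither was called when saline replicate 3, saline replicate 4, LPS replicate 3 or LPS replicate 4 was left out, and 1 was called without LPS replicate 1. The list median was 0.01, or -0.14 with scaling. The class II chain gene H2-Ab1 had 5.71, 10.8 and 7.70 RPKM after LPS, and 20.5 and 24.2 RPKM in saline replicates 1 and 2 but 8.33 and 8.96 RPKM in saline replicates 3 and 4 (-0.76 ± 0.39, adjusted p = 0.251). Without saline replicates 3 and 4, 4 of the 9 class II genes fell and 0 rose, with a median of -0.65 and a change of -1.40 for H2-Ab1 (adjusted p = 0.0209).

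Complement, phagocytic and surface receptor genes rose in part. Of 12 complement genes tested 6 rose and 0 fell (median 1.05), and C4b, the classical pathway component, and Cd55, which accelerates decay of complement convertases, kept their call without each library. C4b had 2.29, 2.82 and 2.83 RPKM after LPS and 0.924, 0.833, 0.569 and 0.814 RPKM after saline (1.03 ± 0.11, adjusted p = 0.00281). Cd55 had 2.23, 2.24 and 2.29 RPKM after LPS and 0.814, 0.877, 1.01 and 0.907 RPKM after saline (0.78 ± 0.09, adjusted p = 0.00356). Both changed little in size and varied little within groups. Each had a saline mean under 1 RPKM and so passed the filter only through its LPS values. Of the other 10 complement genes tested, 4 rose (median 1.14). C1qa, a chain of the initiator C1q, had 66.0, 120 and 93.5 RPKM after LPS and 36.4, 21.2, 8.63 and 17.2 RPKM after saline (2.23 ± 0.43, adjusted p = 0.0130), with an adjusted p of 0.0687 without LPS replicate 3 and 0.0674 without LPS replicate 4. The complement count was 2 without LPS replicate 3 or 4, and 4 without LPS replicate 1 or saline replicate 4. It was 6 without saline replicates 3 and 4 (median 0.70).

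Of 27 lysosome and phagocytosis genes, 9 rose, 0 fell, and the median was 0.85, with 3 called without LPS replicate 3 and 2 without LPS replicate 4. Without saline replicates 3 and 4, 9 were higher and 1 lower, and the median was 0.25. The scavenger receptor gene Msr1 had 16.1, 10.7 and 16.5 RPKM after LPS and 1.52, 1.98, 0.532 and 0.385 RPKM after saline (2.93 ± 0.29, adjusted p = 0.00157), and Fcgr4, an activating receptor for IgG, had 9.17, 9.16 and 12.0 RPKM after LPS and at most 1.16 RPKM after saline (2.73 ± 0.18, adjusted p = 0.000392). These 2 kept their call without each library. Of the 25 lysosome and phagocytosis genes with a saline mean of at least 1 RPKM, 7 rose (median 0.72). Marco, another scavenger receptor, had 1.23, 1.57 and 5.08 RPKM after LPS and at most 0.0260 RPKM after saline (1.69 ± 0.30, adjusted p = 0.00981), with uneven LPS values and too low a mean for a test without LPS replicate 4. Among 19 inhibitory and activating surface receptors 8 rose and 0 fell (median 0.76), or 5 and 4 without LPS replicate 3 and 4, and 8 higher and 2 lower without saline replicates 3 and 4 (median 0.41). Pilra, an inhibitory receptor, changed by 2.29 ± 0.23, and the lectin gene Clec4a1, the inhibitory receptor Lilrb4 and the sialic acid receptor Siglec1 by 1.59 ± 0.21, 1.48 ± 0.18 and 1.28 ± 0.14 (adjusted p = 0.00175, 0.00460, 0.00403 and 0.00288). Of the 17 surface receptor genes with a saline mean of at least 1 RPKM, 6 rose (median 0.71).

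Receptors for metabolites rose beside glycolytic and oxidative stress genes. Gpr84 (ENSMUSG00000063234, chromosome 15, 103308236 to 103310438), a receptor for medium-chain fatty acids, had 92.6, 85.9 and 141 RPKM after LPS and 13, 14.1, 6.40 and 4.41 RPKM after saline (3.45 ± 0.38, adjusted p = 0.00281). Hcar2, a receptor for the ketone body beta-hydroxybutyrate, had 4.24, 2.98 and 4.97 RPKM after LPS and 0.202, 0.433, 0.0942 and 0.0444 RPKM after saline (2.08 ± 0.17, adjusted p = 0.000733). Both were called without each library. Hcar2 had a saline mean under 1 RPKM and passed the filter only through its LPS values. Of the other 20 genes tested of its list, 9 rose (median 0.81). Of the 21 inflammatory metabolism genes 10 rose and 0 fell (median 0.86), the lactate dehydrogenase gene Ldha (1.47 ± 0.25, adjusted p = 0.00914) and the glucose transporter gene Slc2a1 (0.93 ± 0.16, adjusted p = 0.00909) among them. Without LPS replicate 3 or 4 these 2 were lost and the count was 2. It was 9 (median 0.38) with saline replicates 3 and 4 left out. Of 21 oxidative stress genes 11 rose and 0 fell (median 0.92), with the haem oxygenase gene Hmox1 at 7.61, 9.03 and 11.4 RPKM after LPS and 2.94, 3.28, 1.25 and 1.29 RPKM after saline (1.75 ± 0.26, adjusted p = 0.00652). That count was 5 without saline replicate 3, 6 without saline replicates 3 and 4 (median 0.61) and 1 without either LPS replicate 3 or 4.

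Genes of protein synthesis rose as a block. Of 58 cytosolic ribosomal protein genes tested, 56 rose (96.6%) and 0 fell, with a median of 1.47 and changes from 0.61 to 2.13. Rpl10a had 26.8, 24.0 and 29.3 RPKM after LPS and 9.19, 9.14, 5.21 and 5.44 RPKM after saline (1.78 ± 0.23, adjusted p = 0.00411), and Rpl35 had 7.5, 8.65 and 10.9 RPKM after LPS and 2.56, 2.83, 1.5 and 1.40 RPKM after saline (1.72 ± 0.21, adjusted p = 0.00352). In all 58 the LPS and saline values did not overlap, as in 26.5% of all genes tested. The mean log2(RPKM + 1) of the list was 4.52, 4.60 and 4.89 in LPS libraries, and 3.49 and 3.70 in saline replicates 1 and 2 against 2.83 and 2.74 in saline replicates 3 and 4. Called members numbered 49 without those 2 saline libraries (median 1.08), 27 without LPS replicate 3 and 19 without LPS replicate 4. Many of these genes have processed pseudogenes that can share their reads, and 110 of the genes called higher were processed pseudogenes. Rpl22 itself, whose tagged copy is the bait of the pulldown, had 9.35, 10.0 and 13.3 RPKM after LPS and 4.95, 6.51, 4.73 and 3.38 RPKM after saline (1.02 ± 0.20, adjusted p = 0.0148), with an adjusted p of 0.0607 without LPS replicate 3 and 0.0779 without LPS replicate 4. A run of 6 or more C or T within 5 bases of the start, as in the terminal oligopyrimidine tract that ties translation of these mRNAs to growth signals, stood in 14 of the 44 ribosomal protein genes with a promoter window (31.8%) and in 8.48% of all genes. This share was not particular to them. Among tested genes of other lists it ran from 0 of 11 NF-kB genes to 3 of 7 complement genes (42.9%), with 5 of 14 LPS-sensing genes (35.7%).

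Translation factors, secretory chaperones and proteasome subunits moved the same way. Of 29 translation factor genes 15 rose and 0 fell (median 0.86), with Eif5a, an elongation factor, at 21.6, 30.1 and 35.8 RPKM after LPS and 8.08, 7.97, 4.93 and 4.92 RPKM after saline (2.02 ± 0.24, adjusted p = 0.00367). Of 23 endoplasmic reticulum stress and secretion genes 17 rose and 0 fell (median 1.20), led by Sdf2l1, a chaperone cofactor of that compartment, at 32.4, 43.3 and 42.6 RPKM after LPS and 6.30, 6.70, 3.06 and 2.79 RPKM after saline (2.89 ± 0.29, adjusted p = 0.00167). Creld2, Manf and Ssr4, which act in folding and translocation there, changed by 1.42 ± 0.19, 1.33 ± 0.19 and 1.11 ± 0.15 (adjusted p = 0.00476, 0.00512 and 0.00499). These 4 and 5 others of the list kept their call without each library. The proteasome list had 19 of 22 higher (median 0.95), but 10 without saline replicate 3, 13 without both saline replicates 3 and 4 (median 0.72), 3 without LPS replicate 3 and 1 without LPS replicate 4, the last being Psmb2 (1.64 ± 0.25, adjusted p = 0.00645). The oxidative phosphorylation list had 17 of 30 higher (median 0.81), 10 without saline replicate 1, 5 and 7 without saline replicate 3 and 4, 6 without both (median 0.50), and 2 without LPS replicate 3 or 4. For the translation factor list, 9 were called without saline replicate 3, 24 without saline replicate 2, 12 without saline replicates 3 and 4 (median 0.59) and 6 and 5 without LPS replicate 3 and 4. The endoplasmic reticulum count was 9 without either of these 2 LPS libraries, and 14 without saline replicates 3 and 4 (median 0.95).

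Genes that license DNA replication rose. Of 15 cell cycle genes tested 13 rose and 0 fell, while 14 others lay under the filter, with a median of 1.24, and 9 kept their call without each library. Of the 15, 3 had a saline mean under 1 RPKM, and 10 of the other 12 rose (median 1.20). With no filter 11 of the 29 were called, and without saline replicates 3 and 4 it was 10 of the 15 (median 1.06). Mcm2, a subunit of the replicative helicase, had 4.15, 7.09 and 8.22 RPKM after LPS and 0.635, 0.508, 0.327 and 0.222 RPKM after saline (2.36 ± 0.20, adjusted p = 0.00103), and Mcm5 had 3.55, 5.31 and 6.50 RPKM after LPS and at most 0.441 RPKM after saline (2.18 ± 0.17, adjusted p = 0.000733). The subunit genes Mcm4 and Mcm6 changed by 1.71 ± 0.15 and 2.12 ± 0.20 (adjusted p = 0.00107 and 0.00120). Heat shock and immediate early genes rose in 5 of 19 (median 0.29), the constitutive chaperone Hspa8 by 1.89 ± 0.25 (adjusted p = 0.00451) and its cofactor Dnajb1 by 1.18 ± 0.18 (adjusted p = 0.00678). That count was 4 without both saline replicates 3 and 4 (median 0.18), and 2 when LPS replicate 3 or 4 was left out.

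**Figure D3:**
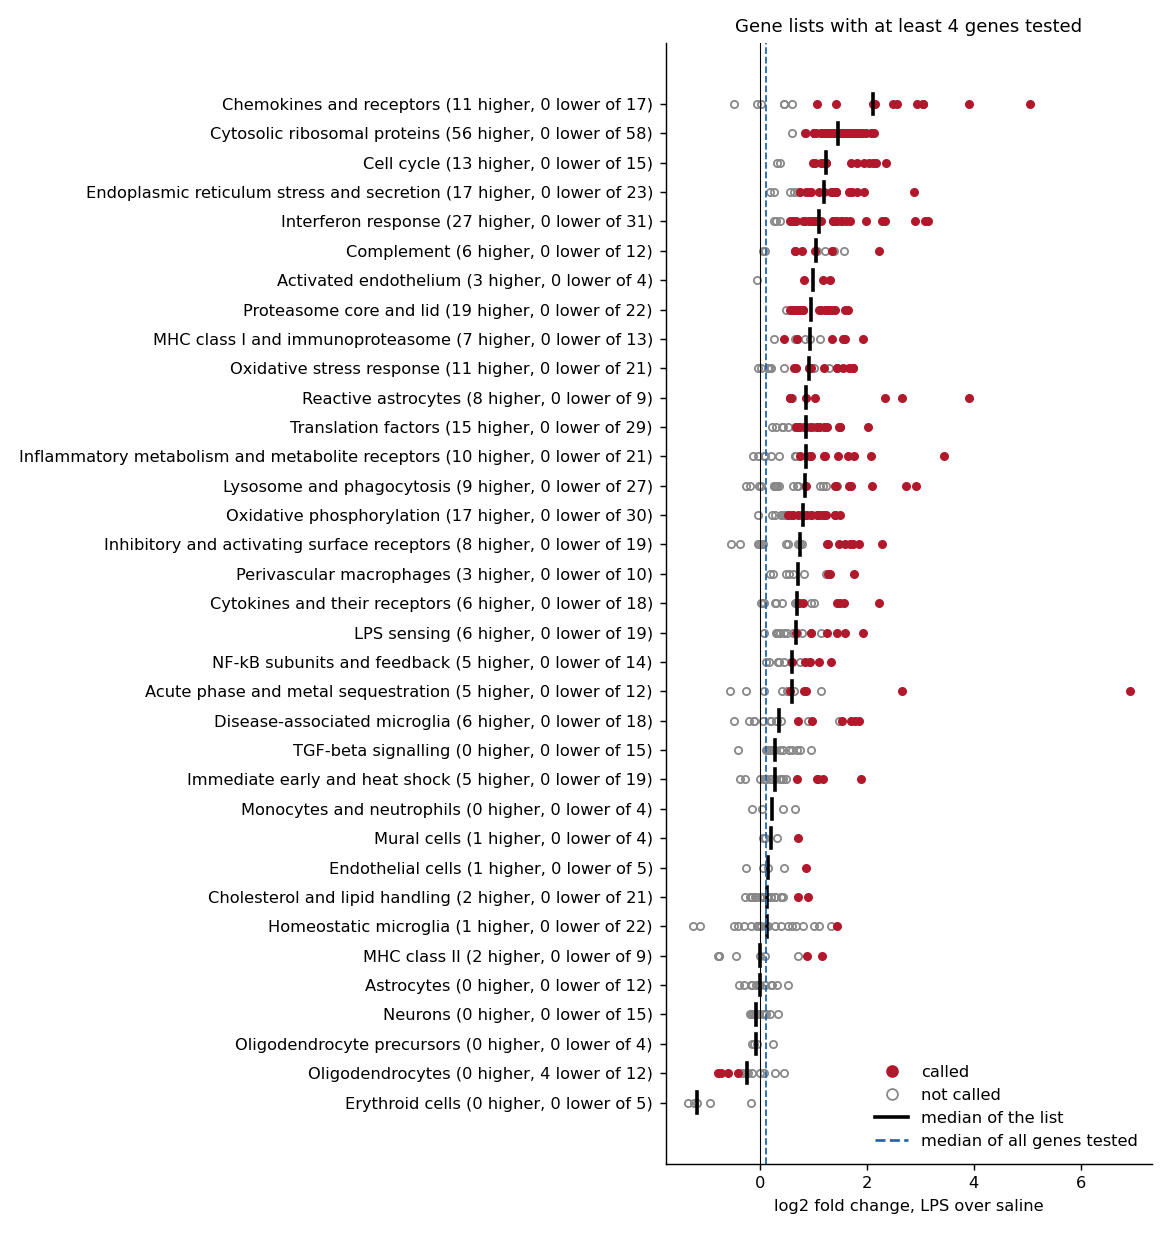
Each row is a gene list and each point a gene, placed by its log2 fold change of LPS over saline, filled red where called. The black bars are medians of the members that passed the filter, from 2.11 for chemokines to -1.17 for erythroid genes, and the dashed line is the median of all genes, 0.11.

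Homeostatic microglial genes did not move as a group in the fit of 7 libraries, and their values went in opposite directions. Of 22 tested 1 rose, the secreted protein gene Olfml3 (63.5, 90.4 and 78.3 RPKM after LPS, 41.1, 45.5, 16.3 and 18.1 RPKM after saline, 1.45 ± 0.39, adjusted p = 0.0424), and it lost its call without any 1 LPS library and without either of saline replicates 3 and 4 (adjusted p up to 0.171). Without saline replicate 2 the list count was 3, and limma voom called 2 higher and 2 lower (median -0.04). At an unadjusted p under 0.05 there were 6. The list median was 0.13, and -0.01 with scaling. The purinergic receptor gene P2ry12 had 75.1, 113 and 66.9 RPKM after LPS, and 270 and 339 RPKM in saline replicates 1 and 2 but 108 and 109 RPKM in saline replicates 3 and 4 (-1.12 ± 0.46, adjusted p = 0.160). Gpr34, a lysophosphatidylserine receptor, had 23.3, 25.2 and 16.4 RPKM after LPS and 77.2, 100, 29.6 and 31.2 RPKM after saline, without overlap (-1.25 ± 0.44, adjusted p = 0.106). Tmem119 had 132, 173 and 160 RPKM after LPS and 115, 133, 41.4 and 52.1 RPKM after saline (1.01 ± 0.42, adjusted p = 0.169). The signalling adaptor gene Tyrobp and the calcium-binding protein gene Aif1 had 1.11 ± 0.41 and 1.33 ± 0.39 (adjusted p = 0.120 and 0.0595), neither of them past the threshold. Without saline replicates 3 and 4, 6 of the 22 fell and 0 rose, with a median of -0.41. P2ry12 was then lower by 1.86 on the log2 scale (-1.86, adjusted p = 0.0125) and Gpr34 had -2.0 (adjusted p = 0.00792).

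Within a library, the ratio of P2ry12 to Tmem119 RPKM sets 2 microglial genes of the same pulldown against each other. This ratio was picked after the values of both genes were seen and is a description. It was 0.570, 0.654 and 0.418 in LPS libraries and 2.35, 2.55, 2.60 and 2.09 in saline libraries, so that the 4 saline libraries stood together. In the Poly(I:C) experiment it was 0.726, 0.670 and 0.655 after Poly(I:C) and 1.84, 2.08 and 2.36 after saline. The ratio shows that these 2 genes changed unequally, not which of them changed.

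Genes of the disease-associated microglial programme rose in 6 of 18 (33.3%, median 0.36), or 2 without LPS replicate 3 or 4. Without saline replicates 3 and 4, 4 were higher and 1 lower (median 0.15). The cystatin gene Cst7 had 2.82, 3.52 and 5.93 RPKM after LPS and 1.05, 0.625, 0.549 and 0.604 RPKM after saline (1.54 ± 0.20, adjusted p = 0.00453), and the secreted phosphoprotein gene Spp1 had 4.21, 2.66 and 2.89 RPKM after LPS and 1.17, 1.44, 1.39 and 0.665 RPKM after saline (0.97 ± 0.18, adjusted p = 0.0105). Both kept their call without each library. Cst7 had a saline mean under 1 RPKM and passed the filter only through its LPS values. Of the other 17 genes tested, 5 rose (median 0.32). The other called members were Lpl, Cd63, Ctsl and Ctsz. Apoe, of the same list, and Trem2, counted here among the homeostatic genes, gave no call. Apoe had 38.9, 53.0 and 47.0 RPKM after LPS and 54.4, 57.0, 18.9 and 24.1 RPKM after saline (0.40 ± 0.40, adjusted p = 0.586), and its receptor Trem2 had 8.56, 11.3 and 9.60 RPKM after LPS and 12.5, 14.9, 5.50 and 5.94 RPKM after saline (0.11 ± 0.33, adjusted p = 0.876). For both the LPS values lay between the pairs of saline libraries. Of 21 cholesterol and lipid handling genes 2 rose, and 0 without saline replicate 3, LPS replicate 3 or LPS replicate 4, and 0 without saline replicates 3 and 4 (median -0.07). Of 15 TGF-beta signalling genes limma and limma voom each called 0, with 5 at an unadjusted p under 0.05. Without saline replicate 2, 2 of them were called higher, and without both saline replicates 3 and 4, 1 was called lower.

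**Figure D4:**
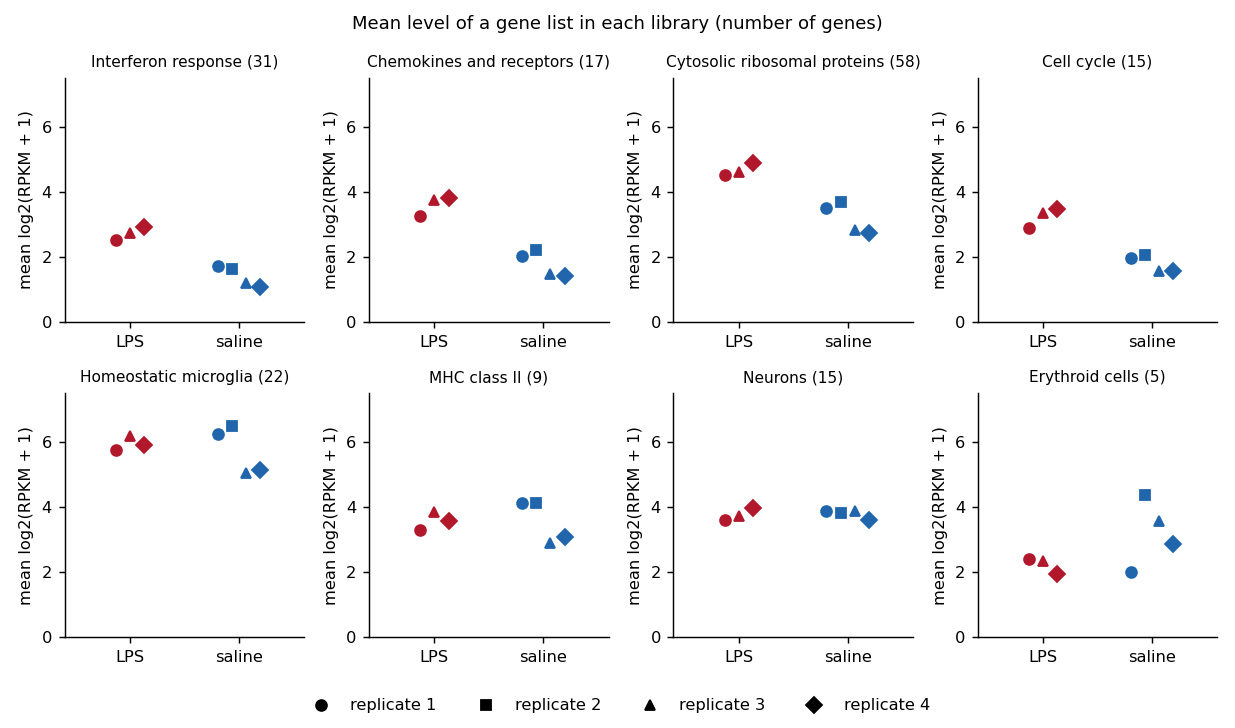
Each panel gives the mean log2(RPKM + 1) of a gene list in each library, LPS in red on the left and saline in blue on the right, with 1 marker shape per replicate number. For homeostatic and MHC class II genes the LPS libraries lie between saline replicates 1 and 2 and saline replicates 3 and 4, while for interferon, chemokine, ribosomal and cell cycle genes they lie above all 4.

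The genes that fell were few and mostly low. Cd209a, a C-type lectin of dendritic cells, had 0.688, 0.322 and 0.519 RPKM after LPS and 4.80, 5.39, 1.73 and 2.45 RPKM after saline (-1.52 ± 0.29, adjusted p = 0.0120), with an adjusted p of 0.0628 without LPS replicate 3 and 0.0612 without LPS replicate 4. Tnfrsf17, the B cell maturation antigen, had 0.181, 0.5 and 0.153 RPKM after LPS and 1.69, 2.76, 0.593 and 1.27 RPKM after saline (-0.96 ± 0.26, adjusted p = 0.0450) and was called without saline replicate 3 but in no other fit that left out 1 library, being under the filter in 3 of them. The list of the 10 lowest further held 4 microRNA genes, Mir302a, Mir697, Mir300 and Mir491, and the small nucleolar RNA gene Snora35, whose reads come from short loci. Mir697 had 5, 0 and 8 reads after LPS and 20, 25, 27 and 20 after saline (-1.20 ± 0.21, adjusted p = 0.00914), and with Snora35 (-0.69 ± 0.11, adjusted p = 0.00824) it was called lower without each library.

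Markers of other cells were followed because the pulldown also carried their RNA. Of 12 oligodendrocyte genes 4 fell and 0 rose, with a median of -0.24, or -0.37 with scaling. Opalin, a membrane protein gene of oligodendrocytes, had 1.01, 1.45 and 0.930 RPKM after LPS and 2.59, 2.74, 2.56 and 2.13 RPKM after saline, without overlap. Opalin, Ugt8a, which makes myelin galactolipids, and Mog, a myelin surface protein gene, had -0.72 ± 0.12, -0.59 ± 0.12 and -0.41 ± 0.11 (adjusted p = 0.00907, 0.0144 and 0.0477). None of these calls held without LPS replicate 4. The summed level of the list was 81.0 to 98.5 RPKM after LPS and 84.4 to 116 RPKM after saline. Of 15 neuronal and 12 astrocyte genes limma and limma voom each called 0 in either direction, with 0 at an unadjusted p under 0.05 and medians of -0.08 and 0.00. Fabp7, a fatty acid binding protein of astrocytes and precursors, had 1.20, 1.5 and 2.12 RPKM after LPS and 2.42, 3.66, 2.98 and 3.00 RPKM after saline (-0.63 ± 0.15, adjusted p = 0.0312), and lost its call without any 1 of saline replicates 3 and 4 and LPS replicates 1 and 3.

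Genes named for reactive astrocytes rose in 8 of 9 tested, with a median of 0.87, while 10 of the 19 entries were not tested. A saline mean under 1 RPKM was found for 3 of the 9, and 5 of the other 6 rose (median 0.60). The count was 5 without saline replicates 3 and 4 (median 0.77). The genes Lcn2, Cp, Cxcl10 and Gbp2 of these also stand in other lists here. The defining gene Gfap had 2.06, 2.05 and 2.50 RPKM after LPS and 1.23, 1.34, 0.883 and 1.07 RPKM after saline (0.59 ± 0.12, adjusted p = 0.0138), and the highest level was that of the proteoglycan gene Srgn, at 40.2, 34.1 and 36.4 RPKM after LPS and 9.53, 11.6, 4.07 and 3.55 RPKM after saline (2.34 ± 0.36, adjusted p = 0.00671). The summed level of that list was 79.7 to 106 RPKM after LPS and 15.3 to 29.6 RPKM after saline, and the count was 5 without LPS replicate 4 and 4 without LPS replicate 3. Srgn and Cxcl10 made up much of the summed level after LPS. The part of reactive astrocytes in the Srgn, Lcn2, Cxcl10 and Gbp2 values was not tested. Perivascular macrophage markers rose in 3 of 10 (median 0.72), with Siglec1 kept without each library and Cbr2 at 11.2, 14.9 and 12.7 RPKM after LPS and 4.52, 6.23, 1.40 and 1.95 RPKM after saline (1.76 ± 0.36, adjusted p = 0.0161, not called without LPS replicate 3 or 4). The summed level was 59.6 to 76.2 RPKM after LPS and 18 to 61.4 RPKM after saline, no marker of it was at 0, and its count was 6 without saline replicate 2, 3 without saline replicates 3 and 4 (median 0.35) and 1 without either LPS replicate 3 or 4. Of the 8 perivascular macrophage markers with a saline mean of at least 1 RPKM, 2 rose (median 0.68).

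Blood cell markers gave no call in the fit of 7 libraries. Of 4 monocyte and neutrophil genes tested of 20, limma and limma voom called 0, with 0 at an unadjusted p under 0.05, and the summed level of the 20 was 20.0 to 25.4 RPKM after LPS and 12.4 to 37.1 RPKM after saline, with Elane at 0 in all 7 libraries. Without saline replicate 2, 1 of the 4 was called higher. The neutrophil gene S100a8 had 3.35, 4.43 and 4.09 RPKM after LPS and 2.40, 9.48, 1.23 and 1.25 RPKM after saline (0.43 ± 0.48, adjusted p = 0.632). Erythroid genes summed to 15.3 to 24.1 RPKM after LPS and 16.0 to 135 RPKM after saline, highest in saline replicate 2. Limma and limma voom called 0 of the 5, and 1 had an unadjusted p under 0.05. Without saline replicate 1, 2 of them were called lower (median -1.67). Of 5 endothelial genes tested of 9, 1 rose, with a median of 0.16. It was the surface antigen gene Ly6c1, with 1.54, 2.32 and 2.55 RPKM after LPS and 0.618, 0.780, 0.626 and 0.808 RPKM after saline (0.86 ± 0.13, adjusted p = 0.00680). A saline mean under 1 RPKM was found for 2 of the 5, Ly6c1 among them, and 0 of the other 3 rose (median 0.05). Of 4 activated endothelium genes tested of 12, 3 rose (median 1.00), but 0 without LPS replicate 3, 1 without LPS replicate 4 and 2 without saline replicates 3 and 4 (median 0.78).

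The most abundant genes that rose were Ccl12, the cytoplasmic actin gene Actb, the Fc receptor chain gene Fcer1g, Sh3bgrl3, the mitochondrial leucine tRNA ligase gene Lars2 and the chaperone gene Hsp90ab1. Fcer1g had 392, 484 and 528 RPKM after LPS and 223, 255, 96.5 and 84.3 RPKM after saline (1.66 ± 0.44, adjusted p = 0.0420), with an adjusted p of up to 0.165 without 1 library. Hsp90ab1 had 160, 190 and 207 RPKM after LPS and 56.5, 58.4, 31.9 and 34.8 RPKM after saline (2.05 ± 0.29, adjusted p = 0.00501). Of the 6, Ccl12 and Hsp90ab1 kept their call without each library. The actin-binding protein gene Tagln2, one of the 15 highest, had 21.8, 29.5 and 35.8 RPKM after LPS and 4.70, 4.38, 1.39 and 2.53 RPKM after saline (2.87 ± 0.31, adjusted p = 0.00266).

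A difference between the LPS and Poly(I:C) responses was called for few genes. A gene without a call is not thereby shown to respond alike. The 13 class I and immunoproteasome genes had a median difference of -0.68 with 0 called. The difference between the effects, each against its own saline libraries, was called for 27 of 13883 genes (0.194%), of which 12 were higher for LPS and 15 lower. Saa3 had 1.32, 2.49 and 2.69 RPKM after Poly(I:C), a change of 1.61 ± 0.22 beside 6.93 for LPS, so that the difference was 5.32 ± 0.30 (adjusted p = 2.93e-06). Lcn2 had at most 0.196 RPKM after Poly(I:C) (difference 2.47 ± 0.16, adjusted p = 6.28e-06), Il1b at most 0.295 RPKM (2.03 ± 0.17, adjusted p = 8.40e-05) and Cxcl13 at most 0.410 RPKM (2.85 ± 0.18, adjusted p = 6.28e-06). All 4 kept this call without each library. They passed the filter, a mean of 1 RPKM over the 13 libraries, only through their LPS values. With a mean of at least 5 RPKM the difference was called for 2 genes. Ccl5 (1.76 ± 0.30, adjusted p = 0.0371), Hcar2 (1.54 ± 0.20, adjusted p = 0.00499) and Cd55 (0.74 ± 0.11, adjusted p = 0.0129) were also higher for LPS, though Ccl5 and Cd55 reached adjusted p of 0.142 and 0.0716 when 1 library was left out.

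Of the 15 genes with a smaller LPS effect, 7 were interferon response genes. Of 35 interferon response genes tested in this fit, those 7 were called and 0 had a larger LPS effect, and the median effect was 1.04 for LPS and 1.97 for Poly(I:C). Oasl2, of the oligoadenylate synthetase-like family, had 29.4, 34.0 and 44.0 RPKM after Poly(I:C), against 1.17, 1.17 and 1.20 RPKM in the saline libraries of that study (4.06 ± 0.24). Its LPS values of 7.43, 8.17 and 11.2 RPKM against 3.27, 2.41, 1.95 and 0.966 RPKM after saline gave 1.69, and the difference was -2.37 ± 0.33 (adjusted p = 0.00814). Low genes with the same order were Plac8, Ddx60, Oas2 and Iigp1, with differences of -1.86, -1.59, -1.55 and -1.53 (adjusted p = 0.00135, 0.0310, 0.00135 and 0.00135), and Ddx60 reached 0.111 without 1 library. Plac8 was counted here in the monocyte and neutrophil list, where 1 of 5 genes tested in this fit had a smaller LPS effect. Not every interferon gene followed, since Isg15 had 1.53 for LPS and 1.97 ± 0.24 for Poly(I:C) (difference -0.44 ± 0.32, adjusted p = 0.758). Among chemokines, Ccl12 had 5.05 for LPS and 5.6 ± 0.40 for Poly(I:C), and Ccl2 had 3.05 for LPS and 2.89 ± 0.28 for Poly(I:C), where the difference of -0.55 ± 0.55 and of 0.16 ± 0.38 did not pass the test (adjusted p = 0.843 and 0.935). Gpr84, with 3.45 for LPS and 2.52 ± 0.35 for Poly(I:C), had a difference of 0.93 ± 0.48 (adjusted p = 0.643). The number of genes called in this difference was 12 without LPS replicate 3 or without Poly(I:C) replicate 1, and it was 33 without saline replicate 4.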

How the data were processed

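Values came from 1 deposited table of RPKM for 43346 genes. The authors made these RPKM values with featureCounts, TopHat2 and CASAVA on the mm10 build, per the submitters' processing notes. Versions and the strand setting of the counting are not given in the sources used here. Per-library steps of the values gave back whole reads for 100% of genes within 0.01 read. Libraries had their group from the labels. The 7 pulldowns entered a limma fit (version 3.58.1, R 4.3.3) of log2(RPKM + 1) with eBayes and an intensity trend. Genes averaging 1 RPKM or more over the libraries were kept, and p-values were adjusted by Benjamini-Hochberg over all genes tested. Calls are those at an adjusted p under 0.05. The difference from Poly(I:C) was a contrast over 13 libraries. Fits were tested on simulated data. Alternatives changed the pseudocount, filter, scaling, spread, libraries or covariates, or used limma voom on the recovered reads. Counting list members with a saline mean of at least 1 RPKM, and leaving out saline replicates 3 and 4 together, were chosen after seeing the data. The p-values measure the spread between libraries, each taken as 1 animal, and no library pair agreed within sampling noise.

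Genes were named by rule. These were the 15 highest and 10 lowest changes among called genes without overlap between groups, leaving out predicted genes, the 6 most abundant called genes, up to 4 genes of each of 37 lists by smallest p, a set of 18 fixed genes, and for the difference the 6 highest and 6 lowest called. Isg15, Ifit1, Gfap, Snap25 and Elane were named outside the rule, after their values were seen, and some genes that the rule names are not reported here. The members, lists and rules were chosen with earlier results of these data known. Of the list entries 769 matched the table and 5 did not. Promoter windows are RefSeq's, on GRCm38.p6. Replicate numbers did not pair the libraries. Other software was pandas 2.3.3, numpy 2.4.6 and matplotlib 3.10.9, under Python 3.11.15.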

Additional observations from a re-analysis of the deposited data

Results flagged for a closer look

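In 3 cases 1 of the 4 saline libraries lay far from the other 3, by Dixon's test over 108 genes and 37 list levels. Chance flags about 1 in 20 groups. Mir491 had 5.31 RPKM in saline replicate 4, Cst7 had 1.05 RPKM in saline replicate 1, and the mean log2 level of heat shock and immediate early genes was 2.11 in saline replicate 4.

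The LPS effect differed from the Poly(I:C) effect, by limma's contrast over 13 libraries, for the following genes. On the log2 scale the LPS effect was larger by 5.32 for Saa3, 2.85 for Cxcl13, 2.47 for Lcn2, 2.03 for Il1b, 1.76 for Ccl5, 1.54 for Hcar2 and 0.74 for Cd55. It was smaller for Oasl2 (-2.37), Plac8 (-1.86), Ddx60 (-1.59), Oas2 (-1.55) and Iigp1 (-1.53). Each experiment had its own saline controls, and whether other differences between the experiments took part was not tested.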

How the results depend on the processing

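The count of 1720 genes called for LPS against saline became 1060 with no filter, 743 with a mean of at least 5 RPKM, 753 with a fold of at least 2, 189 in the fit shared with sorted cells, 3826 with the neuron, astrocyte and oligodendrocyte level as a covariate, and 955 without saline replicates 3 and 4, a choice made after their levels were seen. It was 1522 with a pseudocount of 0.1 RPKM, 1542 with scaling, 1602 by limma voom and 1634 without the trend. Leaving out 1 library gave 397 to 2347. Same-numbered libraries deviated in opposite directions (r of -0.372, -0.24 and -0.554), so the replicate block, with 744 calls, compares libraries that share only a number. Of 98 named genes called, 98 kept their call with scaling, 77 with the block and 42 of the 95 tested in the shared fit, and the cause was not tested.

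The 27 genes whose LPS effect differed from that of Poly(I:C) became 15 with a pseudocount of 0.1 RPKM, 45 with no filter, 2 with a mean of at least 5 RPKM, 49 with scaling and 5 with the replicate block, and 12 to 33 without 1 library. Among genes with no call, Trem2 changed sign with scaling (-0.02), by limma voom (-0.05) and without saline replicates 3 and 4 (-0.45), and ranged from -0.09 to 0.34 without 1 library. Cx3cr1 (-0.13) and Apoe (-0.27) changed sign without saline replicates 3 and 4. Depth limits low genes, such as Tnf, which lay under the filter, and intervals from recovered reads would cover counting error only.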
